A study of Mus musculus with 18 samples.

Results

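The NF-κB subunits and inhibitors examined here were 10 genes, chosen by their role in the pathway and matched by gene name in the read count tables. They were the 5 subunits Rel, Rela, Relb, Nfkb1 and Nfkb2, and the 5 inhibitors Nfkbia, Nfkbib, Nfkbie, Nfkbiz and Tnfaip3. Of these, 9 were found, 5 subunits and 4 inhibitors, where 40327 genes are listed for the 129 allele and 39147 for Cast. Nfkbiz is not analysed here.

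RNA was sequenced from splenic CD23+ B cells of female F1 129S1/Cast mice of genotype Xist+/-, in which the Cast X chromosome was labelled as always inactive. The naive group (n = 3) had the treatment label none, and the stimulated group (n = 3) had received 1 µM CpG for 24 h in vitro. Both groups carried the Xist+/- genotype, so it is shared by controls and stimulated cells. Reads were counted separately for the 129S1/SvImJ and the CAST/EiJ allele, which gave each gene a 129 and a Cast value in every sample. All 9 genes found lie on autosomes. The labels name no culture without CpG, so stimulation and time in culture cannot be told apart, and they do not say that replicates came from separate animals, so p-values measure only the spread between these samples.

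NF-κB factors are dimers built from members of 1 family. Rel (c-Rel), Rela and Relb carry transactivation domains, while Nfkb1 and Nfkb2 encode precursors that are processed into DNA-binding partners. In resting cells, inhibitors of the IκB family, such as IκBα (Nfkbia), IκBβ (Nfkbib) and IκBε (Nfkbie), hold dimers in the cytoplasm until the IKK kinases mark them for degradation. Unmethylated CpG DNA reaches this pathway in B cells through an endosomal Toll-like receptor. Nfkbia and Tnfaip3, which encodes the ubiquitin-editing enzyme A20, are well known targets of NF-κB that limit its activity.

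Promoter sequence is shown for the 5 genes in which a match to the κB consensus motif was found. Of these, Rel, Nfkb2 and Nfkbie fell after CpG, Nfkbia rose on the 129 allele and Tnfaip3 was not called. RefSeq windows on GRCm38.p6 were at hand for 7 of the 10 genes. The 250 bases before each start site were searched on both strands for the κB consensus motif, with overlapping matches counted. Capitals mark the matches, and each sequence reads 5′ to 3′ on the strand of the gene.
Rel, chr11:23771041-23771071, minus strand: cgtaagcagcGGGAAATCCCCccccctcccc
Nfkb2, window 1 of 3, chr19:46304688-46304736, plus strand: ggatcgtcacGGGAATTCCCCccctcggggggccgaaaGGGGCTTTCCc
Nfkb2, window 3 of 3, chr19:46305695-46305724, plus strand: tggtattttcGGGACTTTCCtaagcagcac
Nfkbie, chr17:45555584-45555613, plus strand: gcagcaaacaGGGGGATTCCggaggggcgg
Nfkbia, chr12:55492657-55492686, minus strand: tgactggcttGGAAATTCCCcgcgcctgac
Tnfaip3, window 1 of 2, chr10:19015411-19015545, minus strand: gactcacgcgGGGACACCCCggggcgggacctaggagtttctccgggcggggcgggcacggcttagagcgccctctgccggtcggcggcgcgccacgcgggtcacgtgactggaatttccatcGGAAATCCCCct
Of the 7 genes with a window, these 5 had a match in at least 1 window, and Rela and Nfkbib had none. Counted by window, 7 of the 10 windows of these 7 genes had a match, and windows 2 and 3 of Nfkb2 overlap each other. Over all genes, the motif was present in 2382 of 32851 promoter windows of the same length, or 7.25%. Rel and Nfkb2 window 1 held overlapping matches, and the Nfkbia match began 29 bases before its start site. Window 2 of Nfkb2 also held a match, which began 236 bases before its start site and is not shown. A match describes letters of the reference genome and not a bound site. The genes with a match included ones called lower and one without a call. Nfkbia was called higher on 129 and not on Cast, where its log2 fold change was 0.25.

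Depth was 1987266 to 2928236 gene reads per sample for 129 and 2465073 to 3321753 for Cast. Reads outside annotated genes made up 62.6% to 67.1% in naive and 48.1% to 56.7% in stimulated 129 libraries. For Cast they made up 57.9% to 62.1% and 44.5% to 52.3%. Genes without a name took 5.10% to 7.59% of gene reads for 129 and 14.4% to 19.7% for Cast. The part of these differences in the results was not tested. The labelled cell type was checked against 13 B cell markers, of which 13 were found for 129 and 12 for Cast. In the 129 tables these markers summed to 13633 to 15594 CPM in naive and 4444 to 5208 CPM in stimulated samples. CPM are the reads of a gene scaled to a normalised library total. Macrophage markers summed to 3937 to 8163 CPM in naive samples and to 31.2 to 39.9 CPM in stimulated samples, again in the 129 tables. In the Cast tables they summed to 3098 to 6805 and to 24.7 to 33.4 CPM. All 16 macrophage markers tested were lower after CpG in both table sets, and 12 of the 17 found had at most 3 reads in every stimulated 129 library. The macrophage complement component C1qb, for example, had 2221, 820 and 1370 reads in naive and 0, 1 and 1 reads in stimulated 129 libraries. The B cell markers tested were also all lower after CpG, 13 for 129 and 12 for Cast. T cell markers summed to 54.6 to 71.7 CPM in naive and 6.83 to 12.1 CPM in stimulated 129 libraries. Of 3 plasma cell markers tested for 129, 2 were higher and 1 lower. Markers of B cells and of other cell types thus moved with the groups, and their part in each change below was not tested. In such bulk samples, fewer cells of a type and less RNA per cell cannot be told apart.

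Relb had very unequal reads from its alleles in replicates 2 and 3 of both groups. An F1 animal has a 129 and a Cast copy of every autosomal gene, and all autosomal genes together had a Cast share of 51.9% to 53.6% of reads in the 6 samples. Relb had 250, 11 and 12 reads from the 129 allele in naive replicates 1, 2 and 3, against 160, 350 and 357 from the Cast allele. In stimulated replicates 1, 2 and 3 it had 90, 9 and 9 reads from 129, against 64, 150 and 182 from Cast. The Cast share was 39.0% (95% Wilson interval 34.4 to 43.8) and 41.6% (34.1 to 49.5) in replicate 1 of the naive and stimulated groups. In replicates 2 and 3 it was 97.0% (94.6 to 98.3) and 96.7% (94.4 to 98.1) in naive cells, and 94.3% (89.6 to 97.0) and 95.3% (91.3 to 97.5) in stimulated cells. Nearly all Relb reads thus came from Cast in replicates 2 and 3 of both groups, while both alleles were read in replicate 1 of both groups. These intervals cover counting error only.

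Neighbouring genes of Relb on chromosome 7 were looked at after this was seen, in the gene order of GRCm38.p6. Ppp1r37 had a Cast share of 38.7% to 49.0% in replicate 1 and 95.6% to 99.1% in replicates 2 and 3. Gemin7 had 42.5% to 45.2% and 93.7% to 96.1%, Zfp296 had 38.9% to 53.9% and 83.6% to 89.7%, and Clasrp had 38.0% to 42.6% and 75.4% to 88.7%. These 4 genes lie in a row on the same side of Relb. Tomm40 and Bcl3, the next genes measured on the other side, had shares of 53.5% to 55.1% and 39.0% to 49.0% in replicates 2 and 3. Beyond them the replicates differed again, by less: Pvr had 29.7% to 32.6% in replicate 1 and 51.9% to 65.2% in replicates 2 and 3. Zfp180 had 35.2% to 48.9% and 65.1% to 69.8%, and Zfp61 had 26.0% to 35.5% and 52.6% to 62.5%. Such differences also occurred near other members. Enpp4, a measured neighbour of Nfkbie, had 19.1% to 28.2% in replicate 1 and 62.7% to 92.0% in replicates 2 and 3. Near Nfkb2, Actr1a had 79.0% and 81.6% in naive and stimulated replicate 3 and 47.9% to 50.9% in the other samples, and Arl3, with few reads, had a gap of 35.6 points. The largest gap between mean shares of 2 replicate numbers was 55.7 points for Relb and had a median of 5.88 points over 7420 autosomal genes. Of those genes, 445 had a gap of at least 30 points and 22 (0.296%) one at least as large as that of Relb. Why the alleles were unequal in some replicates was not tested.

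**Figure D1:**
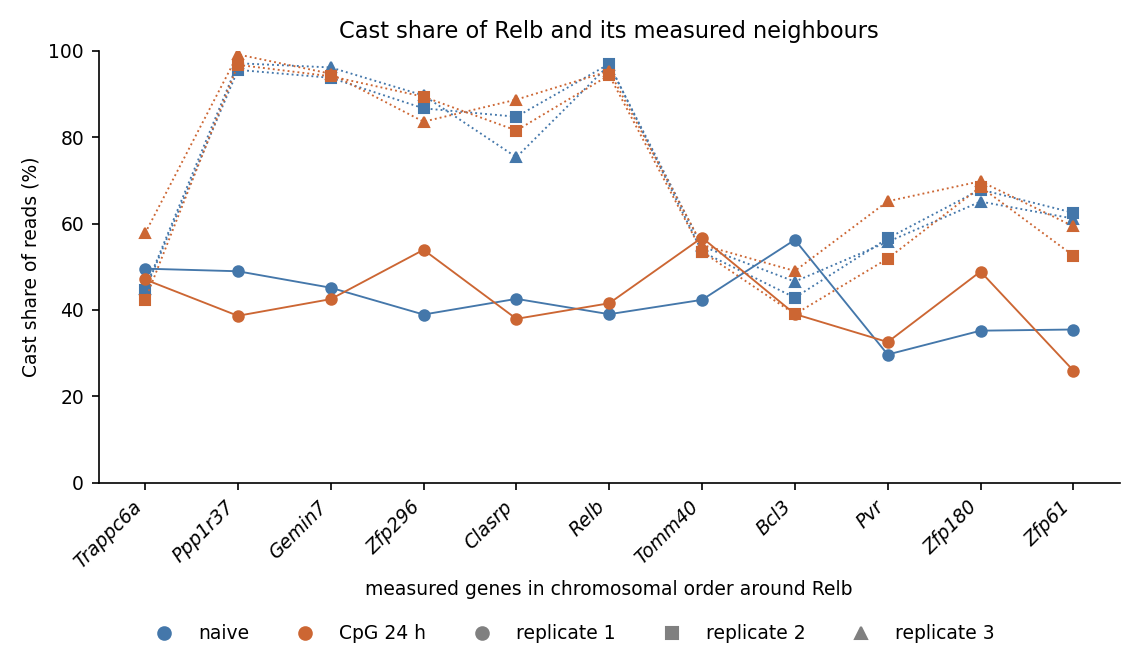
Cast share of reads (%, y axis) of Relb and its 10 nearest measured neighbours in chromosomal order (x axis), for 3 naive (blue) and 3 stimulated (orange) samples, with replicate 1 as circles on solid lines and replicates 2 and 3 as squares and triangles on dotted lines. From Ppp1r37 to Relb, replicates 2 and 3 lie between 75.4% and 99.1%, and replicate 1 lies between 38.0% and 53.9%.

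After CpG the RNA of Rel, Nfkb1, Nfkb2 and the inhibitor Nfkbie was lower on both alleles, and that of Nfkbia was higher on the 129 allele. Among the 9 genes, 5 changed on the 129 allele at an adjusted p under 0.05 (edgeR's quasi-likelihood test, Benjamini-Hochberg over all genes tested), 1 higher and 4 lower. On the Cast allele 6 changed, 0 higher and 6 lower, and the number at an unadjusted p under 0.05 was also 6, while DESeq2 called 5. With the replicate number as a block, 7 and 6 changed, beside 65.1% and 66.3% of all genes tested. Changes were widespread: 55.2% of all genes tested were called on the 129 allele, 28.2% higher and 27.0% lower, and 62.2% on the Cast allele, 30.7% higher and 31.5% lower. The share of the 9 genes called in either direction was therefore near the background on both alleles. The median log2 fold change of the 9 genes was -0.64 on 129 and -0.74 on Cast, beside -0.01 and -0.04 over all genes tested. The groups did not overlap for 6 of the 9 genes in each table set, beside 64.8% and 68.5% of all genes tested. All fold changes below compare stimulated with naive cells on the log2 scale.

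**Figure D2:**
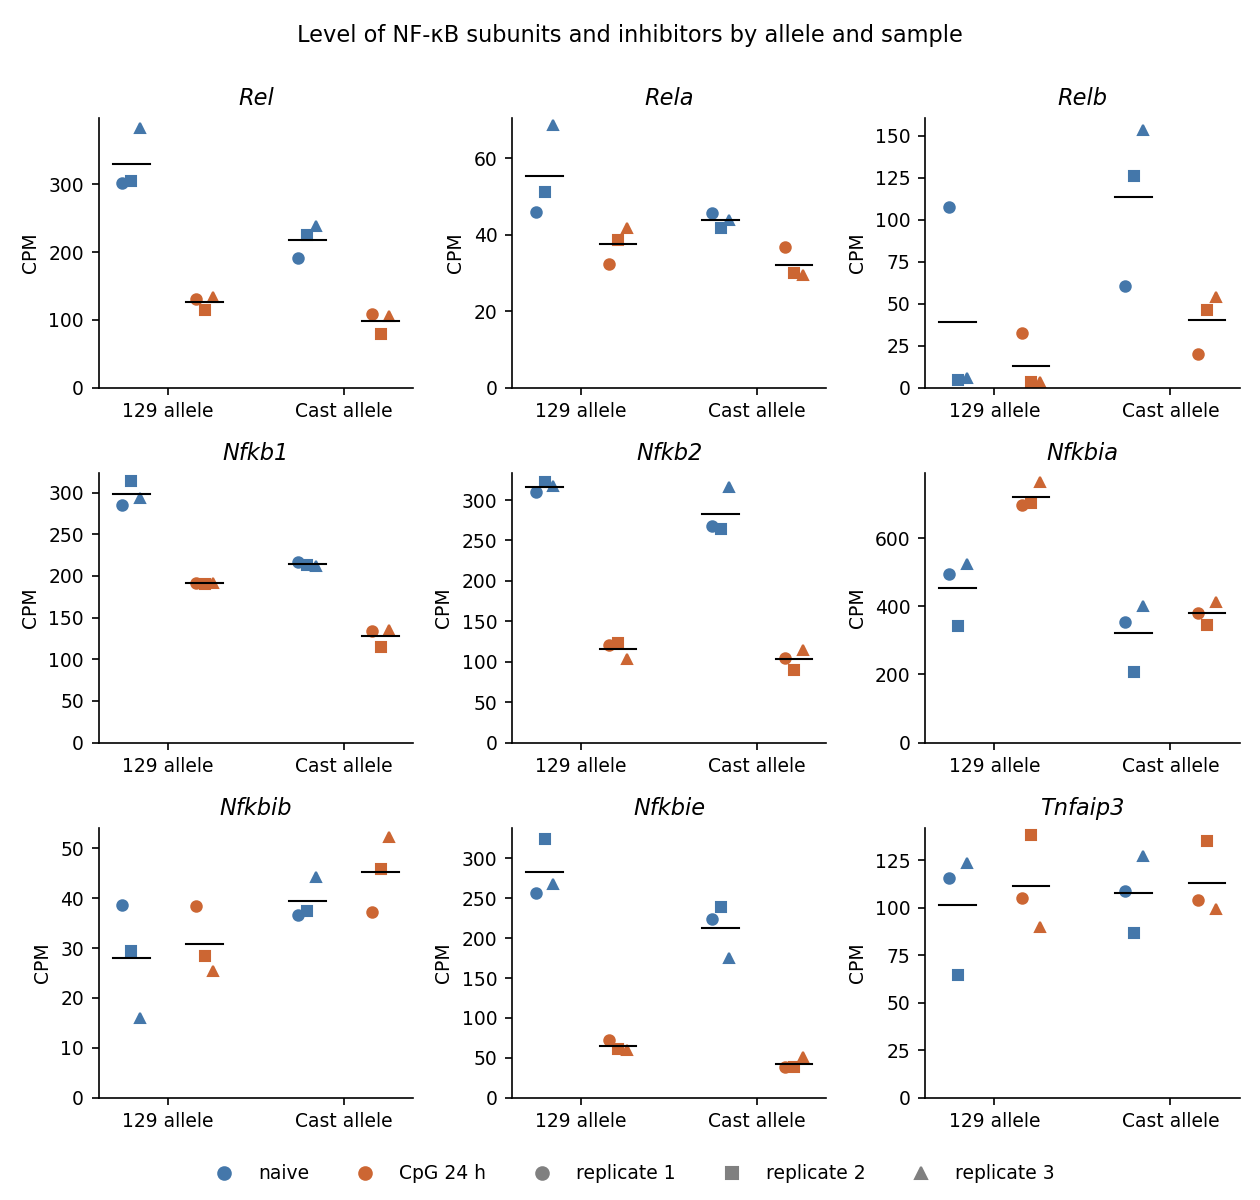
Level in CPM (y axis, from 0, its own scale in each panel) of the 9 genes on the 129 and Cast alleles, for naive (blue) and stimulated (orange) replicates 1 (circle), 2 (square) and 3 (triangle), with a black line at each group mean (n = 3). Rel, Nfkb1, Nfkb2 and Nfkbie are lower in every stimulated sample on both alleles, and Nfkbia is higher in every stimulated sample on the 129 allele.

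Rel, the c-Rel subunit that lymphocytes use in activation and survival, had 302, 305 and 384 CPM from the 129 allele in naive replicates 1, 2 and 3 and 131, 115 and 134 CPM after CpG. From the Cast allele it had 191, 225 and 239 CPM in naive and 108, 78.6 and 107 CPM in stimulated samples. The groups did not overlap on either allele. Rel fell by 1.38 (SE 0.14, adjusted p = 0.000143, edgeR) on 129 and by 1.16 (SE 0.16, adjusted p = 0.000182) on Cast.

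Rela encodes the p65 subunit of the classical dimer. It had 46.0, 51.1 and 68.7 CPM in naive and 32.4, 38.6 and 41.9 CPM in stimulated samples on the 129 allele. On the Cast allele it had 45.6, 41.8 and 43.8 CPM before and 36.9, 29.9 and 29.6 CPM after CpG. The groups did not overlap, and every stimulated value lay below every naive value of the same allele. The log2 fold change was -0.55 (SE 0.20, adjusted p = 0.0510, edgeR) on 129, which passed the threshold with the replicate number as a block (adjusted p = 0.0126), and -0.45 (SE 0.16, adjusted p = 0.0382) on Cast. The Cast call was lost with DESeq2 (adjusted p = 0.130), without the filter on low counts (0.148), without replicate 1, 2 or 3 of the naive group or replicate 2 or 3 of the stimulated group (0.0741 to 0.143), and in replicates 2 and 3 alone (0.0805). With the reads of both alleles summed, Rela had a log2 fold change of -0.47 (SE 0.13, adjusted p = 0.00810).

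Relb, a subunit whose usual partner is the product of Nfkb2, fell on the Cast allele. Its Cast level was 60.3, 126 and 153 CPM in naive and 20.2, 46.3 and 53.9 CPM in stimulated samples, and its log2 fold change was -1.49 (SE 0.40, adjusted p = 0.00908, edgeR). That call was lost without the filter on low counts (adjusted p = 0.119). On the 129 allele, replicate 1 had 108 CPM before and 32.4 CPM after CpG, while replicates 2 and 3 had 4.57 and 6.02 CPM before and 3.19 and 3.14 CPM after. The 129 groups overlapped, and the log2 fold change of -1.62 had an SE of 1.57 (adjusted p = 0.428). With the replicate number as a block it was -1.38 (adjusted p = 0.000812), and without naive replicate 1 its sign turned, at 1.28 (adjusted p = 0.438). Summed over both alleles, which sets the uneven allele share aside, Relb had 410, 361 and 369 reads in naive and 154, 159 and 191 reads in stimulated samples. That sum fell by 1.49 (SE 0.13, adjusted p = 7.07e-06), where 68.7% of all genes tested were called and 34.4% were called lower.

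Nfkb1, the precursor of the usual partner of Rel and Rela, had 285, 314 and 294 CPM in naive and 192, 191 and 192 CPM in stimulated samples on the 129 allele. Its Cast allele had 217, 213 and 212 CPM before and 134, 115 and 136 CPM after. The groups lay apart on both alleles. Nfkb1 fell by 0.64 (SE 0.10, adjusted p = 0.00109, edgeR) on 129 and by 0.74 (SE 0.12, adjusted p = 0.000476) on Cast.

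Nfkb2, the precursor processed in the non-canonical branch of the pathway, had 309, 322 and 317 CPM in naive and 121, 123 and 103 CPM in stimulated samples on the 129 allele. On Cast it had 267, 264 and 317 CPM before and 105, 89.4 and 114 CPM after. Nfkb2 fell, with log2 fold changes of -1.45 (SE 0.11, adjusted p = 4.69e-05, edgeR) on 129 and -1.46 (SE 0.14, adjusted p = 1.96e-05) on Cast, with no overlap of the groups. In GRCm38 the gene overlaps Psd on the opposite strand, and whether the authors' counting used strand is not given in the sources used here.

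Nfkbie, which encodes IκBε, an inhibitor that binds dimers with Rel or Rela, had the largest fold change of the 9 genes on both alleles. Its 129 level was 257, 325 and 268 CPM in naive and 72.6, 60.6 and 59.3 CPM in stimulated samples. Its Cast level was 224, 239 and 176 CPM before and 38.1, 38.2 and 50.9 CPM after. Every stimulated value lay far below every naive value. Nfkbie fell by 2.14 (SE 0.15, adjusted p = 2.86e-05, edgeR) on 129 and by 2.33 (SE 0.17, adjusted p = 5.02e-06) on Cast.

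Nfkbia, which encodes the classical inhibitor IκBα, moved the other way on the 129 allele. It had 495, 343 and 525 CPM from 129 in naive and 698, 702 and 765 CPM in stimulated samples, and the groups did not overlap. It rose by 0.67 (SE 0.17, adjusted p = 0.0120, edgeR) there. From the Cast allele it had 353, 209 and 401 CPM before and 381, 345 and 414 CPM after, with overlapping groups and a log2 fold change of 0.25 (SE 0.22, adjusted p = 0.351). Summed over both alleles Nfkbia rose by 0.53 (SE 0.18, adjusted p = 0.0256).

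Nfkbib and Tnfaip3 passed the test on neither allele. Nfkbib, which encodes IκBβ, had 38.7, 29.5 and 16.0 CPM in naive and 38.5, 28.4 and 25.5 CPM in stimulated samples on 129, a log2 fold change of 0.13 (SE 0.33, adjusted p = 0.770, edgeR). On Cast it had 36.5, 37.5 and 44.2 CPM before and 37.2, 46.0 and 52.4 CPM after, a log2 fold change of 0.20 (SE 0.18, adjusted p = 0.357). In GRCm38 the gene overlaps Sirt2 and Ccer2 on the opposite strand, so its reads cannot be told from theirs unless strand was used.

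Tnfaip3 had 116, 64.8 and 123 CPM in naive and 105, 139 and 90.0 CPM in stimulated samples on the 129 allele. Its Cast allele had 109, 86.9 and 127 CPM before and 104, 135 and 99.1 CPM after. The log2 fold changes were 0.14 (SE 0.27, adjusted p = 0.694, edgeR) and 0.07 (SE 0.18, adjusted p = 0.748). With upper-quartile scaling, which moved the median of all genes tested to -0.16 on 129 and -0.17 on Cast, they were -0.01 and -0.06, and Nfkbib on 129 was at -0.02. Naive replicate 2 had the lowest Nfkbia and Tnfaip3 of the naive group on both alleles and also its lowest summed macrophage marker level, 3937 CPM in the 129 tables, and their relation was not tested.

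**Figure D3:**
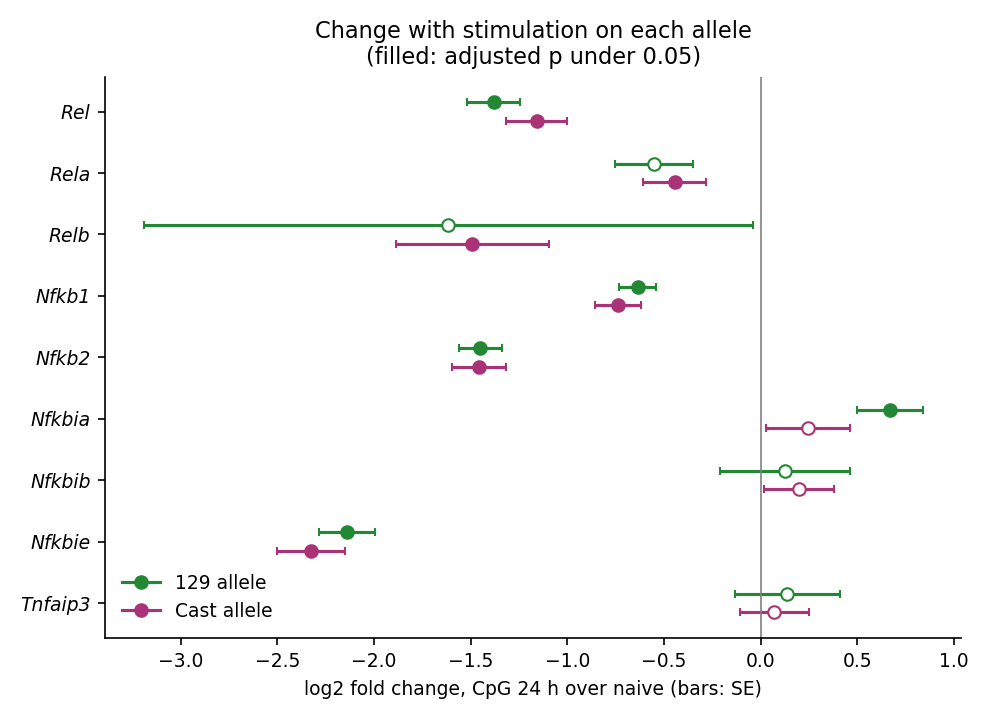
Log2 fold change of stimulated over naive cells (x axis) of the 9 genes on the 129 (green) and Cast (purple) alleles, with bars for the SE (n = 3 per group) and filled points at an adjusted p under 0.05. Nfkbie is farthest to the left, at -2.14 and -2.33, and the bar of Relb on 129 is the widest, with an SE of 1.57.

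The make-up of the system was read as the ratio of 2 genes within a sample, where depth cancels and gene length does not affect the change. The log2 ratio of Rel to Rela reads was lower after CpG, going from a mean of 2.59 ± 0.12 (SD, n = 3) in naive to 1.76 ± 0.23 in stimulated samples on 129. On Cast it went from 2.31 ± 0.21 to 1.60 ± 0.23. The log2 ratio of Nfkb1 to Nfkb2 was higher after CpG, going from -0.09 ± 0.04 to 0.73 ± 0.14 on 129 and from -0.40 ± 0.16 to 0.32 ± 0.06 on Cast. For the inhibitors, Nfkbia had 1.92, 1.06 and 1.96 times the reads of Nfkbie in the naive 129 libraries and 9.61, 11.6 and 12.9 times in the stimulated ones. In the Cast libraries the quotient was 1.57, 0.873 and 2.28 before and 10, 9.02 and 8.13 after CpG. None of these 6 comparisons had overlapping groups, and each gave a two-sided exact permutation p of 0.1, the smallest that 3 against 3 samples can give (0.1 after Benjamini-Hochberg adjustment over the 6). Among single genes tested, the groups did not overlap for 64.8% on 129 and 68.5% on Cast, and no such share was made for pairs of genes. Each shift follows from the fold changes of its 2 genes given above, and both alleles of a sample share a library.

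Both alleles of each gene were then compared within the same sample. For none of the 9 genes did this Cast-to-129 ratio change with CpG at an adjusted p under 0.05 (interaction term, edgeR), against 0.917% of 10364 genes. At an unadjusted p under 0.05 there was 1, Nfkbia, and DESeq2 called 0. With the replicate number as a block, 7.52% of all genes and 1 of the 9, Nfkbia, were called.

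In naive replicates 1, 2 and 3, Cast reads made up 44.9% (42.8 to 47.0, 95% Wilson interval), 41.2% (38.6 to 43.8) and 47.1% (44.9 to 49.3) of Nfkbia reads. With CpG this share was 38.4% (36.7 to 40.1), 36.1% (34.4 to 37.8) and 39.0% (37.4 to 40.6). The groups did not overlap, so the share was lower in the stimulated sample of all 3 pairs, with differences of -6.49, -5.10 and -8.17 points. For the other 8 genes the groups overlapped. How many of all genes had Cast shares without overlap was not counted. The means were 44.4% ± 2.99 and 37.8% ± 1.51 (SD, n = 3), and the exact permutation test of their difference gave p = 0.1 (0.9 adjusted over 9 genes). The log2 ratio of Cast to 129 changed by -0.39 (SE 0.11, adjusted p = 0.195, edgeR), and with the block by -0.39 (adjusted p = 0.00177). DESeq2 gave -0.39 (adjusted p = 0.659), and leaving out each sample in turn gave -0.49 to -0.31. The ratio changes of the other 8 genes did not pass the test with or without the block. For Rel the change was 0.21 (SE 0.12, adjusted p = 0.627) and for Nfkbie -0.18 (SE 0.21, adjusted p = 0.873).

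The alleles also differed in level within a group. In naive cells the log2 ratio of Cast to 129 was -0.39 (SE 0.09, adjusted p = 0.0150, edgeR) for Rel, -0.32 (SE 0.08, adjusted p = 0.0199) for Nfkbia and -0.27 (SE 0.08, adjusted p = 0.0406) for Nfkb1. In stimulated cells it was -0.72 (SE 0.08, adjusted p = 0.000420) for Nfkbia and -0.37 (SE 0.08, adjusted p = 0.0112) for Nfkb1. The median over autosomal genes was 0.12 in both groups, so these genes lay on the 129 side of the rest. These 3 and 2 of the 9 genes stand beside 26.6% and 26.7% of all genes called. With the block, 6 of the 9 were called in each group, beside 44.6% and 45.7% of all genes: Relb, Nfkbib and Tnfaip3 were added in naive cells, while Relb, Nfkbib, Nfkbie and Tnfaip3 were added in stimulated cells. The block takes differences in allele ratio between replicate numbers out of the spread that a call is measured against. A call with the block therefore does not show that the replicates shared a bias. For Relb the naive Cast shares were 39.0%, 97.0% and 96.7%. With DESeq2 the naive calls of Nfkbia (adjusted p = 0.0719) and Nfkb1 (0.140) were lost, while Relb gained a call in naive (3.50, adjusted p = 0.0102) and stimulated cells (2.87, adjusted p = 0.0456). The naive call of Nfkb1 was also lost without robust estimation (0.0526) and without stimulated replicate 1 (0.0604). Fewer calls were made without a naive replicate: 0 of the 9 without naive replicate 1, and 1 each without naive replicate 2 and without naive replicate 3. Calls over all genes also fell, to 1943 of 9868, 1836 of 9856 and 1929 of 9882, from 2756 of 10364. In stimulated cells 1 of the 9 was called without stimulated replicate 2, where leaving out each sample in turn gave 1932 to 2571 genes called. How reads were assigned to a strain is not given in the sources used here, and its part in these levels was not tested.

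Among the other 8 genes, the Cast share of Nfkbib varied most between replicate numbers after Relb, by 21.4 points, with means of 62.5% ± 12.5 in naive and 62.8% ± 9.39 (SD, n = 3) in stimulated samples. Nfkb1 had means of 45.3% ± 1.35 and 43.6% ± 2.37, and Nfkb2 had 50.7% ± 2.76 and 50.6% ± 5.61. Tnfaip3 was at 55.7% ± 4.56 and 54.1% ± 2.06.

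**Figure D4:**
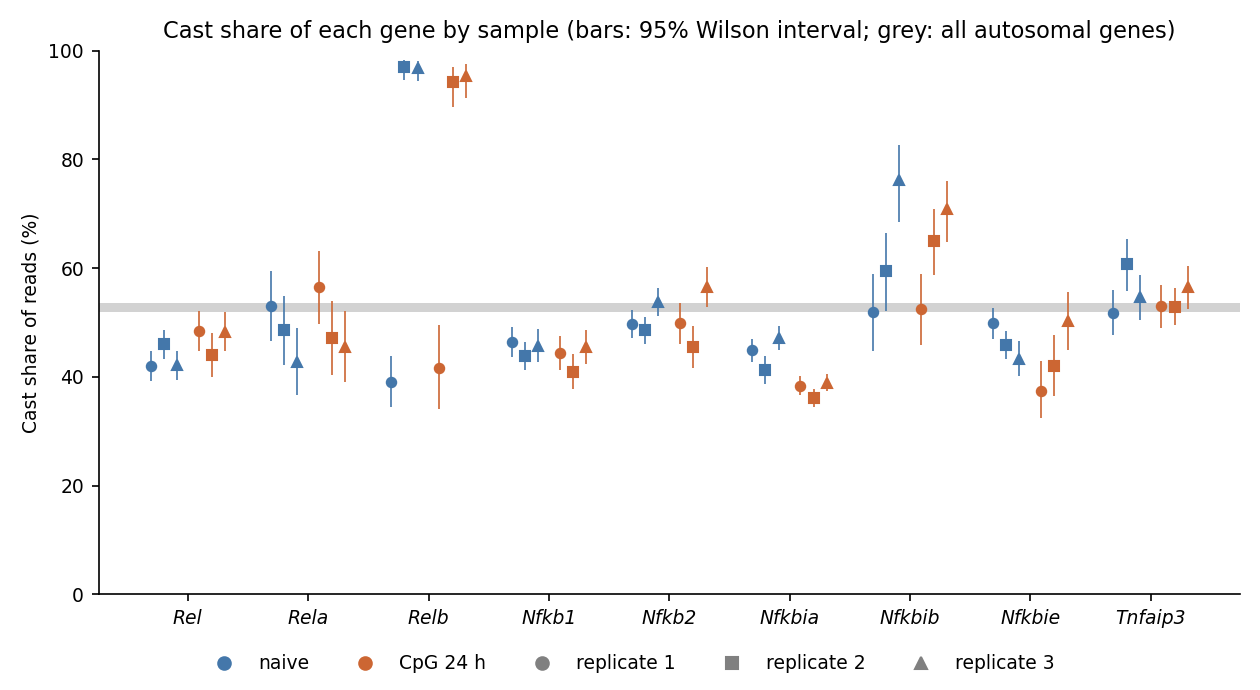
Cast share of reads (%, y axis) of the 9 genes in naive (blue) and stimulated (orange) replicates 1 (circle), 2 (square) and 3 (triangle), with bars for the 95% Wilson interval and a grey band for all autosomal genes together, 51.9% to 53.6%. Relb lies between 94.3% and 97.0% in replicates 2 and 3, and the 3 stimulated Nfkbia points, 36.1% to 39.0%, lie below the 3 naive ones, 41.2% to 47.1%.

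Other genes of the pathway were followed by list. Of the atypical IκB proteins, which act mostly in the nucleus, Nfkbid fell by 1.47 (SE 0.45, adjusted p = 0.0322, edgeR) on 129 and by 1.41 (SE 0.18, adjusted p = 0.000134) on Cast. The 129 call was lost without naive replicate 1 or 3 and without stimulated replicate 2 or 3 (0.0806 to 0.0919), and without the filter on low counts (0.103). Bcl3, the other atypical protein tested, had log2 fold changes of 0.90 on 129, which was called, and 0.63 on Cast, which was not.

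Of the IKK complex and the kinases upstream, 1 rose, 5 fell and 5 were not called of 11 tested on 129. On Cast 2 rose, 5 fell and 3 were not called of 10. Beside this, 28.2% of all genes tested were higher and 27.0% lower on 129, and 30.7% and 31.5% on Cast. The list's median log2 fold change was -0.53 and -0.38, beside -0.01 and -0.04 over all genes. Ikbkb, the catalytic subunit IKKβ that marks IκB proteins for degradation, went from 811 ± 48.5 to 411 ± 9.53 CPM (SD, n = 3) on 129, a fall by 0.98 on the log2 scale (adjusted p = 0.000173, edgeR), and fell by 0.83 on Cast (adjusted p = 0.000269). Map3k14, the kinase NIK of the non-canonical branch, fell by 1.71 (adjusted p = 4.45e-05) and 1.75 (adjusted p = 3.87e-06). Map3k7, the kinase TAK1, rose by 0.50 (adjusted p = 0.00983) and 0.46 (adjusted p = 0.00644). Map3k3, another kinase of this tier, fell by 0.83 and 0.77.

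Bcl10, an adaptor of antigen receptor signalling, fell by 0.59 on 129 and 0.53 on Cast. Malt1, a protease of the same pathway, fell, with log2 fold changes of -1.87 (adjusted p = 3.09e-05, edgeR) on 129 and -1.23 (adjusted p = 1.52e-05) on Cast, and the log2 change of its Cast-to-129 ratio was 0.65 (adjusted p = 0.0726).

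The ubiquitin regulators had 2 higher, 9 lower and 9 not called of 20 tested on 129, and 2, 10 and 9 of 21 on Cast. The share called either way was thus near the 55.2% and 62.2% of all genes tested. By direction, 28.2% of all genes tested were higher and 27.0% lower on 129, and 30.7% and 31.5% on Cast. The list thus held more lower and fewer higher calls than genes at large, and its median log2 fold change was -0.51 and -0.40, beside -0.01 and -0.04. Birc3, a ubiquitin ligase and itself an NF-κB target, went from 609 ± 32.3 to 169 ± 25.9 CPM on 129 and fell, with log2 fold changes of -1.85 (adjusted p = 3.80e-05, edgeR) there and -2.14 (adjusted p = 0.000171) on Cast. Birc2, the related ligase, fell by 1.55 and 1.62, and the adaptor Traf5 fell, with log2 fold changes of -1.23 and -1.49. Traf1, another adaptor and NF-κB target, rose by 0.91 (adjusted p = 0.0320) and 1.02 (adjusted p = 0.000566). The 129 call of Traf1 was lost without any one library other than naive replicate 2 (0.0537 to 0.0980), and with upper-quartile scaling (0.0669).

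Genes known as NF-κB targets were called in both directions, as were genes overall. On 129, 8 rose, 9 fell and 7 were not called of 24 tested, and on Cast 7, 8 and 9 of 24. Over all genes tested, 28.2% were higher and 27.0% lower on 129, and 30.7% and 31.5% on Cast. The median log2 fold change of the targets was 0.04 and 0.14, beside -0.01 and -0.04. Il10, the anti-inflammatory cytokine, went from 1.49 ± 0.24 to 46.0 ± 17.9 CPM (SD, n = 3) on 129 and rose by 4.90 (adjusted p = 7.41e-05, edgeR) there and by 4.30 (adjusted p = 1.77e-06) on Cast. The chemokine Ccl3 had 3, 2 and 5 reads in naive and 225, 63 and 116 in stimulated 129 libraries, and 2, 1 and 1 reads before and 499, 172 and 677 after CpG from Cast (adjusted p = 0.000678 and 1.58e-05). With so few naive reads the size of its rise is not well determined. The stress-response gene Gadd45b rose by 2.96 and 3.17. Cd74, the invariant chain of antigen presentation, went from 6294 ± 1416 to 635 ± 154 CPM on 129 and fell by 3.31 on both alleles. Slfn2 fell, with log2 fold changes of -2.12 and -2.41, as did the transcription factor subunit Junb, with -1.61 and -1.49. Cd74 is also high in macrophages, whose markers were nearly gone after CpG, and the part of that in its fall was not tested.

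**Figure D5:**
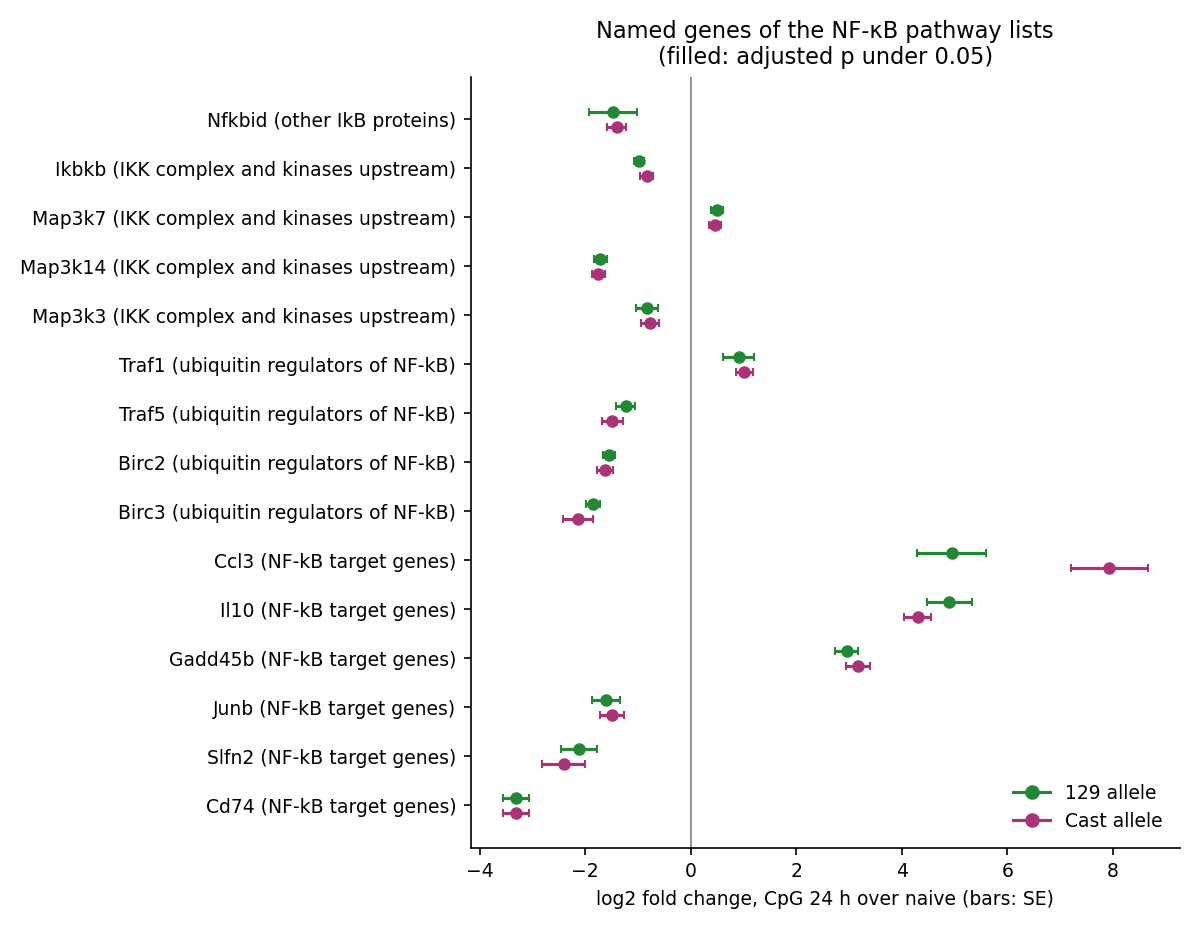
Log2 fold change of stimulated over naive cells (x axis) of 15 other NF-κB pathway genes, with the list of each in brackets, on the 129 (green) and Cast (purple) alleles; bars are the SE (n = 3 per group), and all points are filled, for an adjusted p under 0.05. The target genes Ccl3, Il10 and Gadd45b lie to the right, and Cd74 lies farthest to the left at -3.31.

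The genes whose levels followed Rel most closely were Pnisr and Phc3. Over the 12 values of 6 samples and 2 alleles, each allele centred on its own mean, Pnisr had a Pearson r of 0.992 and Phc3 of 0.988 with Rel, on log2 CPM. Both alleles of a sample share a library, and 679 of 4250 genes compared had an r above 0.9. Pnisr had log2 fold changes of -1.26 on 129 and -1.05 on Cast, and Phc3 of -0.91 and -0.72.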

How the data were processed

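RNA of 6 samples was extracted with TRIzol and prepared with a stranded total RNA kit, per the labels' protocols. The submitters' processing notes name STAR, featureCounts, Subread 2.0.0 and mm10 without roles. Each sample had 2 tables of raw counts deposited by the authors, with gene identifiers of the 129S1/SvImJ and the CAST/EiJ annotation, and summary rows in the style of htseq-count, which were left out. The strand setting and the assignment of reads to strains are not given in the sources used here. Of the 18 samples of the series, 12 are not analysed here.

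Each table set was fitted in edgeR 4.0.16 (R 4.3.3) by the robust quasi-likelihood test with TMM factors and filterByExpr, on 10581 and 10365 genes, with Benjamini-Hochberg adjustment and a threshold of 0.05. SE is the log2 fold change divided by the root of F. CPM uses the total reads of the genes kept by the filter in its table set, multiplied by the TMM factor of the library. Allele ratios were fitted with a term per sample, allele and allele by group, on genes matched by name and chromosome (28374 matched) with at least 10 reads in at least 3 samples. Scripts were tested on simulated data. Alternatives were other scalings, filters, DESeq2 1.42.0, leaving out samples, summed alleles and a replicate block.

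Replicate numbers come from the sample titles. Samples with the same number deviated together in every pair, with correlations of deviations from the group means of 0.468 to 0.624 (129), 0.172 to 0.245 (Cast) and 0.642 to 0.727 (autosomal ratio), so the numbers were taken to pair the samples. The main fits held no term for the replicate number, and the pairing entered only in the fits with the replicate block. The genes and lists were chosen with earlier results of these data known. Named were all members and, per list, up to 3 genes risen and 3 fallen past the threshold on both alleles in the same direction, with a mean of at least 20 reads per sample in each table set and the largest mean fold change, and the 2 genes most correlated with Rel with a mean of at least 100 reads. The neighbours of Relb and the analysis of replicates 2 and 3 only were chosen after seeing the data. One result of the pathway lists is not reported here.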

Additional observations from a re-analysis of the deposited data

Results flagged for a closer look

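The change of the Cast-to-129 ratio of Nfkbia with CpG, -0.39 on the log2 scale in the analysis with the replicate block (adjusted p = 0.00177, edgeR), is listed because the test of the difference between its alleles passed the threshold there. The direction was the same in 3 of 3 pairs, as it must be where the Cast shares of the groups do not overlap. With the block, 7.52% of all genes tested were called. Without the block the change was -0.39 with an adjusted p of 0.195.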

How the results depend on the processing

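The calls for Rel, Nfkb1, Nfkb2 and Nfkbie on both alleles and for Nfkbia on 129 held under every scaling, filter, left-out sample and tool tried, except that a minimum log2 fold change of 1 left 2525 genes and 3 members on 129 and 2827 genes and 2 members on Cast; fewer genes pass a larger fold by construction. The replicate block moved the genes with a changed ratio from 95 to 779 and the members from 0 to 1. It moved ratio calls to 4622 genes and 6 members in naive and 4740 genes and 6 members in stimulated cells. Among the 9 genes, beside these and Rela and Relb on 129, it changed no other call. Over all genes it moved the calls of change with CpG from 5842 to 6884 on 129 and from 6445 to 6868 on Cast. Changed ratios numbered 56 without robust estimation, 14 to 26 when leaving out each sample, and 15 in replicates 2 and 3 only. Leaving out a sample gave 1836 to 2618 genes and 0 to 3 members for the naive ratio. For the stimulated ratio it gave 1932 to 2571 genes and 1 to 3 members. In replicates 2 and 3 only, 1 and 4 members were called for these ratios, where the naive ratio was called for 2216 of 9464 genes. For the stimulated ratio, the alternatives other than leaving out a single sample ranged from 2316 to 4740 genes. The naive member was Relb (4.93, adjusted p = 4.15e-05, edgeR), in a fit without the replicate in which both its alleles were read. In replicates 2 and 3 only, the calls of Map3k7 on both alleles (adjusted p = 0.0888 and 0.0567, edgeR) were lost. The calls of Bcl10 (0.0721) and Traf1 (0.0789) on 129 were also lost there. The cause was not tested.

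Sign changes were all in values that did not pass the test: upper-quartile scaling gave Tnfaip3 -0.0065 (129) and -0.060 (Cast) and Nfkbib -0.019 (129). Its higher and lower calls were 2610 and 3317 on 129 and 2830 and 3678 on Cast, beside 2987 and 2855, and 3180 and 3265. A library size per table gave Nfkb2 ratio values of 0.052 for the change, -0.10 in naive and -0.052 in stimulated cells. In replicates 2 and 3 only, the ratio change was 0.090 for Nfkbie and -9.2e-05 for Nfkbib. When each sample was left out, the change on 129 ranged from -3.61 to 1.28 for Relb, from -0.10 to 0.31 for Tnfaip3 and from -0.15 to 0.43 for Nfkbib, and that of Tnfaip3 on Cast from -0.059 to 0.22. The ratio change ranged from -2.54 to 1.28 for Relb, -0.32 to 0.44 for Nfkbib, -0.10 to 0.24 for Rela, -0.17 to 0.15 for Nfkb2 and -0.21 to 0.053 for Tnfaip3. The naive ratio ranged from -0.051 to 0.10 for Nfkb2 and -0.25 to 0.046 for Rela, and the stimulated ratio from -0.14 to 0.19 and -0.22 to 0.10. Relb had 250 and 11 reads on 129 in naive replicates 1 and 2, at 2358912 and 2375717 gene reads.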
